A study of Mus musculus with 23 samples.

Results

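Quadriceps muscle of vehicle-treated male mice was compared with that of vehicle-treated female mice, gene by gene, over the autosomes. The groups compared hold 12 of the 23 mice of the series, which the labels list as separate animals. These are the 6 males M1, M3, M5, M7, M9 and M11 and the 6 females F1, F3, F5, F7, F9 and F11. All 12 were C57Bl6 mice aged 8 to 10 weeks that carried a pellet of 100 mg cholesterol under the skin of the neck for 14 days and were fasted for 5 hours before collection. None of them received corticosterone. The females were not sorted by stage of the estrous cycle, and the sources used here do not say whether the sexes were processed together, so that a batch and the sex cannot be told apart. The other mice of the series, 6 males and 5 females, had pellets that held 50 mg corticosterone beside 50 mg cholesterol for the same time. They took part in the filter, the scaling and the fit behind the main p-values of genes. They also show where the male to female difference was found again. The table of counts holds 51201 autosomal gene IDs out of 55573. Of these, 12613 passed the filter on low counts and were tested, and 22528 had no count in any vehicle-treated mouse.

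Male and female muscle of mice differ in size, in fiber make-up and in the hormones that reach them. Testosterone acts on muscle through the androgen receptor, a transcription factor whose gene lies on the X chromosome and is therefore outside this comparison. A long-known target of androgens is the synthesis of polyamines, the small cations putrescine, spermidine and spermine that bind nucleic acids and are needed for growth. Ornithine decarboxylase (Odc1) makes putrescine, S-adenosylmethionine decarboxylase (Amd1) supplies the aminopropyl groups that turn putrescine into spermidine and spermine, and spermine oxidase (Smox) turns spermine back into spermidine.

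The vehicle-treated mice were sequenced to a like depth, with 20904150 to 21847218 read pairs counted on genes per mouse. At this depth 3 counts correspond to between 0.129 and 0.153 CPM, the counts per 1000000 pairs counted on genes after TMM scaling. Xist had between 2964 and 3562 counts in the females and between 2 and 16 in the males, while a set of Y-chromosome genes had at most 2 counts in the females and at least 2465 in the males, so every library matched its labelled sex. Muscle fiber markers, 12 of 12 tested, summed to between 141806 and 199659 CPM. Some libraries stood apart in measures other than sex. M1 had counts on 23837 genes, against 19761 to 20938 in the other mice. Hepatocyte markers summed to 1837 CPM in M9 and to between 77.4 and 438 CPM in the others. Slow fiber genes summed to between 4464 and 7164 CPM in F3, F5, M3 and M5 and to between 75.2 and 370 CPM in the other mice.

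The 2 sexes differed at few autosomal genes. At an adjusted p-value under 0.01 in edgeR's quasi-likelihood test, 108 autosomal genes were called, which is 0.856% of those tested. Expression was higher in males for 85 of them (0.674%) and higher in females for 23 (0.182%). The log2 fold change (log2FC, male minus female) of the male-higher genes had a median of 1.34 and that of the female-higher genes a median of -1.08, where the median over all tested genes was -0.0023 and the median size 0.12. More than 8-fold differences were found for 19 male-higher genes and 1 female-higher gene. In 15 male-higher genes every female lay below 1 CPM, and in 2 female-higher genes every male did. All 6 males lay above all 6 females for 76 called genes and below them for 23, while the groups overlapped for 9. Over all tested genes 1.61% had every male above every female and 0.848% had every male below. By biotype, 94 of the called genes code for proteins, 6 are lincRNAs, 3 are antisense RNAs, 3 are processed pseudogenes and 2 are processed transcripts. DESeq2 called 263 genes (2.09%) and limma-voom 168 (1.33%) on the same 12613 genes. The count of female-higher genes fell to 15 when F1 or M3 was left out and to 14 when M5 or M11 was left out.

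**Figure D1:**
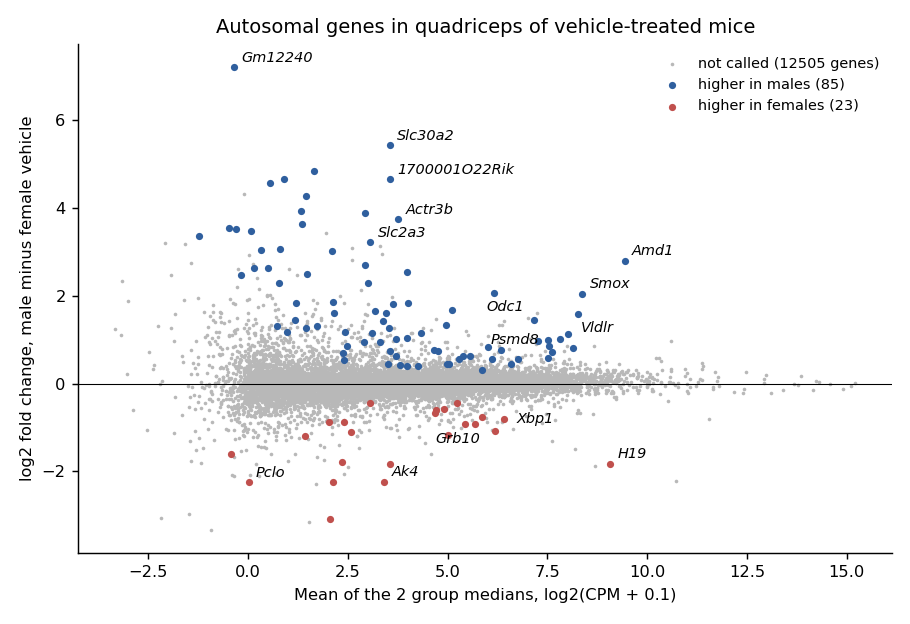
Each point is 1 of the 12613 autosomal genes tested, placed by its level (mean of the female and male medians, log2(CPM + 0.1)) and by its log2FC, male minus female, in vehicle-treated mice. The 85 male-higher calls (blue) include Amd1 and Smox and reach a log2FC of 7.21 in Gm12240, a processed pseudogene of uncertain level. Slc30a2 stands at 5.43. The 23 female-higher calls (red) reach -3.09 and include H19.

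The sexes parted on the second principal component of these mice and not on the first. The first principal component of the 500 most variable autosomal genes held 45.2% of the variance and did not part the sexes, at a mean of -0.28 ± 15.1 in males and 0.28 ± 12.7 in females (SD, n = 6 each, two-sided exact permutation test, p = 0.939). Slow fiber genes led it, with Myh7, the heavy chain of slow myosin, first, and 11 of its 20 leading genes belonged to the slow fiber list. The second component held 15.2% and placed males between 4.77 and 9.11 and females between -10.8 and -3.68, without overlap (two-sided exact permutation test over 924 regroupings, p = 0.00216, the smallest these groups allow, adjusted p = 0.00866 over 4 components). Of its 20 leading genes 13 were called, with Slc30a2 and Amd1 first, which is part of what the component measures and no further support for the calls. The third component held a similar share of the variance, 13.8%. Whether the sexes parted on the second component depended on which mice were included. Leaving out M5, F7 or M9 let the sexes overlap on it (adjusted p = 0.0649, 0.026 and 0.0346 by the same exact test), and without M3 it did not part them (adjusted p = 0.883) while the third component did, without overlap (adjusted p = 0.00866).

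**Figure D2:**
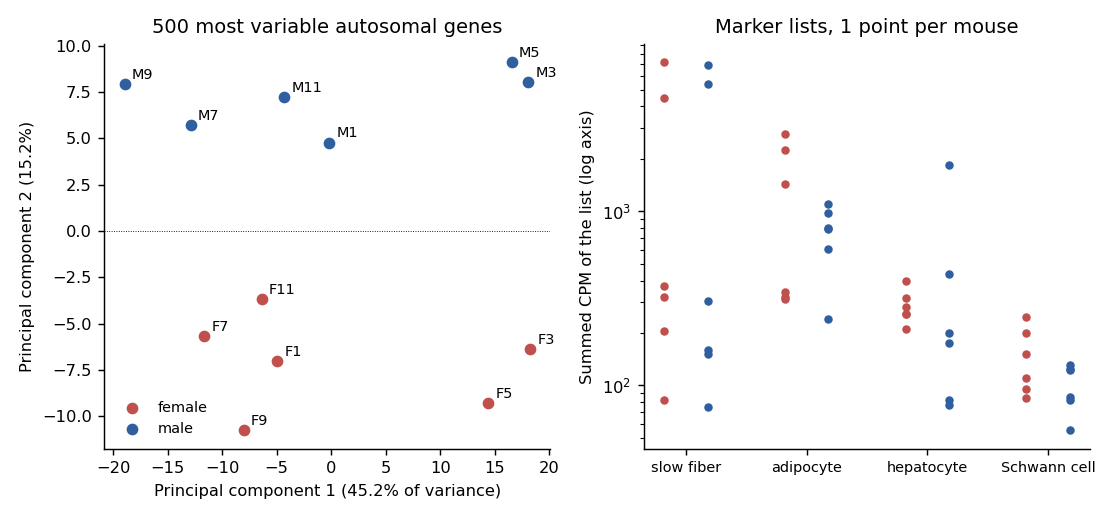
The left panel places the 12 vehicle-treated mice on the first 2 principal components, with every male above 0 and every female below 0 on the second and with F3, F5, M3 and M5 to the right on the first. The right panel gives the summed CPM of 4 marker lists on a log axis, 1 point per mouse, and the 2 sexes overlap in each list.

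The enzymes that make and turn over polyamines held several of the differences. Of 13 genes listed for polyamine metabolism 11 were tested and 4 of them were called higher in males, where 0.674% of all tested genes were. The list was chosen with earlier results of these data known, so this share is not independent of them. Amd2, among the 4, can share reads with Amd1. The list's median log2FC was 0.76. The other 7 tested members were not called.

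Odc1 (chr12:17544794-17551505, plus strand, GRCm38), the first enzyme of the pathway, had 56.0, 79.2 and 104 CPM in the lowest, the median and the highest female and 178, 206 and 267 CPM in the males. The lowest male lay well above the highest female. Its log2FC was 1.45 (SE 0.23, adjusted p = 0.000484, quasi-likelihood test of edgeR adjusted by Benjamini-Hochberg, as for every adjusted p-value of a gene that follows unless another tool is named).

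Amd1 (chr10:40287458-40302186, minus strand) lay between 136 and 221 CPM in females (median 173) and between 858 and 1634 CPM in males (median 1215). The groups were far from overlapping, and F3 and F9, at 221 CPM each, were the highest females. The log2FC was 2.80 (SE 0.25, adjusted p = 2.66e-07).

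Smox (chr2:131491496-131525922, plus strand) had 81.3, 129.8 and 211 CPM in the lowest, the median and the highest female and 352, 534 and 863 CPM in the males, again without overlap. F1 and M1 were the highest of their sexes. The log2FC was 2.05 (SE 0.36, adjusted p = 0.00182). With both M1 and M9 left out it was 1.75 and no longer passed (adjusted p = 0.0194).

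Amd2 (chr10:35708675-35711892, minus strand) is a near copy of Amd1 whose reads can be shared with it, and its own level is uncertain. It was counted at 0.757 to 1.22 CPM in females and at 4.15 to 10.1 CPM in males, with a log2FC of 3.02 (SE 0.51, adjusted p = 0.00101). A processed pseudogene named after the same gene, Amd-ps3, behaved alike in these counts, at 0.176 to 0.601 CPM in females and 1.46 to 3.56 CPM in males, and is uncertain for the same reason.

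**Figure D3:**
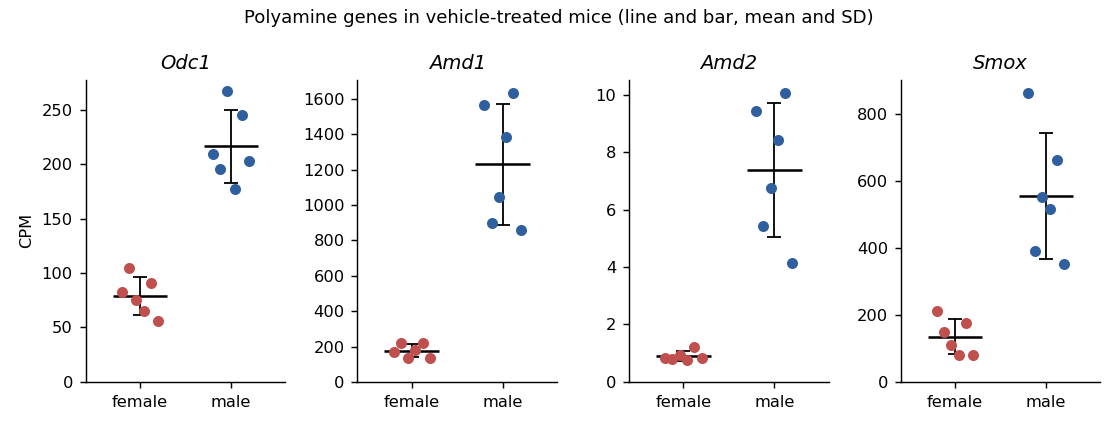
CPM of Odc1, Amd1, Amd2 and Smox in each vehicle-treated mouse, with the mean and SD of the 6 females (red) and of the 6 males (blue) on linear axes that start at 0. In each of these genes the lowest male lies above the highest female.

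The remaining tested members of the list did not pass. Arg2 and Agmat were listed but not tested. All 13 listed genes are autosomal, so members of the pathway on the X chromosome were not examined. Spermidine synthase (Srm) had a log2FC of -0.14 (SE 0.14), with medians of 9.97 CPM in females and 9.04 CPM in males. The antizymes Oaz1 and Oaz2, which bind ornithine decarboxylase and send it to the proteasome, had a log2FC of 0.14 (SE 0.10) and 0.20 (SE 0.10), and the antizyme inhibitor Azin1 -0.10 (SE 0.13). Acetylpolyamine oxidase (Paox) stood at -0.05 (SE 0.22). Azin2 (0.76, SE 0.31) and arginase 1 (Arg1, 1.20, SE 1.19) had larger values with wide errors and adjusted p-values of 0.267 and 0.752.

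Because Odc1 and Amd1 differed together, the stretch before the start of each is shown, 5′ to 3′ on the strand of the gene, from RefSeq on GRCm38.p6 and cut where an annotated exon of the gene begins. The stretch of Odc1 is chr12:17544623-17544793 and that of Amd1 chr10:40302189-40302438. Capitals mark the letters GGGCGG, the GC box bound by Sp factors, on either strand, and TATANAA, the letters of a TATA box.
Odc1: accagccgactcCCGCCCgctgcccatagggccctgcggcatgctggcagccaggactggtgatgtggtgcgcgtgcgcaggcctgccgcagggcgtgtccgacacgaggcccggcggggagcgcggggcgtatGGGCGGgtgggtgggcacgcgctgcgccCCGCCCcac
Amd1: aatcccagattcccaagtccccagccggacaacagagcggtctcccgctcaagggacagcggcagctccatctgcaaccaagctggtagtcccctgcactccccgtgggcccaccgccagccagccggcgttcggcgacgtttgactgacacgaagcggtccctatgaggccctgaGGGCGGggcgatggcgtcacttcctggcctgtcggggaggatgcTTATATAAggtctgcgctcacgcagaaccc
Both stretches are rich in G and C, at 77.2% over 171 bases in Odc1 and 64.4% over 250 bases in Amd1. Odc1 showed 3 matches to GGGCGG and Amd1 showed 1, letters that 64.1% of the 9560 tested genes with a window of 250 bases before to 50 bases after the start and 36.3% of all 25748 such windows held. In Amd1 the run TTATATAA holds 2 overlapping matches to TATANAA, one on each strand, between 30 and 23 bases before the start, where 5.21% of the tested and 11.9% of all windows held a match.

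Neither stretch held AGAACA, the half-site shared by the androgen, glucocorticoid and progesterone receptors, nor CACGTG, the E-box of Myc and clock proteins, on either strand. The windows that RefSeq gives for Smox and Amd2 held neither of them. Over the male-higher genes, 60 of 85 had such a window, and AGAACA stood in 9 of these (15%), beside 12% of the tested and 19% of all windows. CACGTG stood in 5 (8.33%), beside 10.3% and 7.23%. The female-higher genes had 16 windows of 23, with AGAACA in 1. AGAACA followed, 3 bases on, by its reverse complement, the full response element, stood in 0 of the called and in 1 of all windows. These are counts of letters near 1 start per gene and say nothing about binding elsewhere.

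Outside the polyamine genes, the largest male-higher differences were found in genes that were low in females, at no more than 2.87 CPM and mostly below 1 CPM. The filter asked for counts in only 1 group, so such genes could enter through the groups where they were high. Low female levels beside a large log2FC are partly set by that filter. Slc30a2 (chr4:134343181-134354484), which codes for a zinc transporter that moves zinc out of the cytosol into vesicles, had 0.216, 0.384 and 1.37 CPM in the lowest, the median and the highest female and 18.5, 22.8 and 35.0 CPM in the males. F3 was the highest female, and the groups lay far apart. The log2FC was 5.43 (SE 0.50, adjusted p = 2.96e-07).

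Actr3b (chromosome 5), an actin-related protein of the kind found in the Arp2/3 complex that nucleates actin branches, had the lowest p-value of the genes described here. It rose from between 1.01 and 2.87 CPM in females (median 1.81) to between 18.9 and 29.9 CPM in males (median 25.3), with a log2FC of 3.75 (SE 0.23, adjusted p = 2.59e-10). The uncharacterised gene 1700001O22Rik (chromosome 2) had 0.293 to 1.67 CPM in females and 9.47 to 42.4 CPM in males, a log2FC of 4.65 (SE 0.53). Odf3l2 (chromosome 10), named after a protein of sperm tails, had 0.345 to 1.80 CPM in females and 9.10 to 24.8 CPM in males (log2FC 3.88, SE 0.52). For each of these genes the lowest male was several times the highest female.

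Slc15a5 (chromosome 6), of the peptide transporter family, lay between 0 and 0.820 CPM in females and between 2.15 and 13.2 CPM in males, with a log2FC of 4.85 (SE 0.77). Cd27 (chromosome 6), a receptor best known from lymphocytes, had at most 0.195 CPM in a female and 1.22 to 4.50 CPM in males (log2FC 4.58, SE 0.47). The 12 lymphocyte markers listed were too low to be tested, at a summed 0.880 to 5.05 CPM in females and 0.870 to 3.13 CPM in males, so that the groups overlapped in these markers. In counts, Cd27 had 15 in all females together and 358 in all males, a ratio of 24.9 after scaling (95% interval 14.9 to 44.9, counting error only). Fscn2 (an actin bundling protein known from the retina), Tmem132b, Ly6g6d, the lincRNA 8430426J06Rik and Irx3os, an RNA antisense to Irx3, had a log2FC between 3.47 and 4.65 and did not overlap between the sexes. Irx3os overlaps Irx3, a homeobox gene, on the opposite strand, and the counting used the strand. Irx3 itself had a log2FC of 1.30 (SE 0.37, adjusted p = 0.0673) with overlapping groups. Gm12240 is a processed pseudogene, so its counts may come from the gene it was copied from, and its level is uncertain. It had 2 counts in all females and 380 in all males, a ratio of 198 (95% interval 54.4 to 1640, counting error only). Odf3l2, Slc15a5 and Tmem132b were not called by limma-voom (adjusted p = 0.0289, 0.0565 and 0.0935), nor Tmem132b without M1 and M9.

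**Figure D4:**
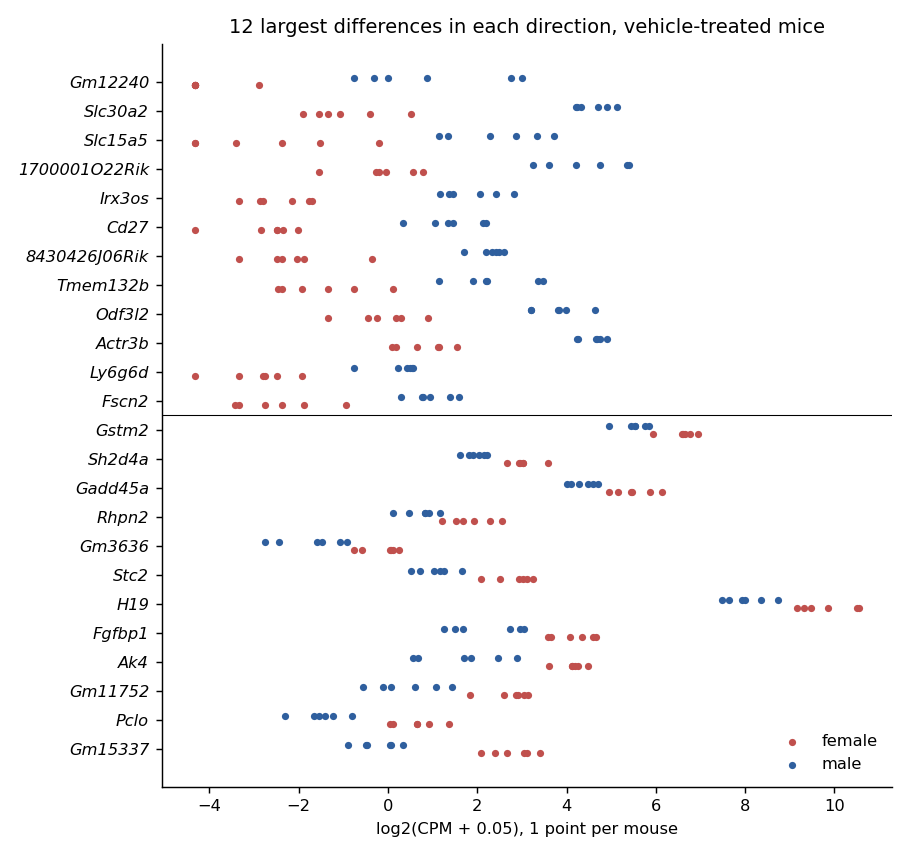
Level of the 12 male-higher genes (upper rows) and the 12 female-higher genes (lower rows) with the largest log2FC among called genes whose groups did not overlap, as log2(CPM + 0.05) with 1 point per vehicle-treated mouse (red, female, and blue, male). No male overlaps a female in any of these genes. The male-higher genes reach a log2FC of 7.21 in the uncertain pseudogene Gm12240 and 5.43 in Slc30a2, the next. The female-higher genes reach -3.09.

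Further male-higher genes were named after their values were seen. Slc2a3 (chromosome 6), the glucose transporter GLUT3, had 0.781, 2.11 and 2.32 CPM in the lowest, the median and the highest female and 9.10, 14.4 and 37.6 CPM in the males. M1 was far above the other males, and all males lay above all females. The log2FC was 3.22 (SE 0.41, adjusted p = 4.04e-05). Erfe (chromosome 1), the hormone erythroferrone that lowers hepcidin in the liver, was below 1 CPM in every female and lay between 1.29 and 5.42 CPM in males (log2FC 3.07, SE 0.45, adjusted p = 0.000237).

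Vldlr (chromosome 19), which takes up triglyceride-rich lipoproteins in muscle, lay between 136 and 171 CPM in females and between 269.5 and 387 CPM in males, with a log2FC of 1.13 (SE 0.12, adjusted p = 4.32e-06).

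Smaller and tight differences were found in genes with steady levels. Psmd8 (chromosome 7), a subunit of the 19S cap of the proteasome, had 91.0, 129 and 135 CPM in the lowest, the median and the highest female and 220.3, 239 and 256 CPM in the males, with a log2FC of 0.99 (SE 0.10, adjusted p = 1.89e-06). The other 41 of 42 tested proteasome subunits were not called, where 0.674% of all tested genes were called higher in males. The median log2FC of the family was 0.03. Bhlhe41 (chromosome 6), a repressor within the circadian clock, had 36.1 to 58.8 CPM in females and 76.8 to 93.3 CPM in males (log2FC 0.82, SE 0.15, adjusted p = 0.00223). It was the only one called among 20 clock genes, where 0.674% of all tested genes were called higher in males. The list's median was -0.0044.

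Serpinb6a (chromosome 13), an intracellular inhibitor of serine proteases, lay between 121 and 179 CPM in females and between 300.2 and 627 CPM in males (log2FC 1.58, SE 0.15, adjusted p = 7.07e-07). Npnt (chromosome 3), nephronectin of the extracellular matrix, lay between 3.13 and 8.75 CPM and between 19.4 and 41.9 CPM (log2FC 2.55, SE 0.35, adjusted p = 0.000103). Tead1 (chromosome 7), a transcription factor that binds the promoters of many muscle genes, overlapped between the sexes although it was called, since F3 at 181 CPM lay above M1 at 175 CPM (log2FC 0.59, SE 0.10, adjusted p = 0.00155). Crip3 and Themis3, both on chromosome 17, were called although 1 or more males lay at the level of the females. Crip3 lay at 0.335, 4.56 and 6.41 CPM in the lowest, the median and the highest male and at most at 0.475 CPM in a female. Themis3 lay at 0.205, 1.14 and 3.39 CPM in males and at most at 0.237 CPM in a female. Neither was called by limma-voom (adjusted p = 0.0495 for Crip3 and 0.0669 for Themis3) or in the vehicle-treated mice alone, nor Themis3 without M1 and M9.

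The 23 female-higher genes were less extreme. H19 (chr7:142575529-142578143), an imprinted long noncoding RNA that is expressed from the maternal copy and restrains growth in the embryo, had 573, 823 and 1504 CPM in the lowest, the median and the highest female and 179.9, 250.3 and 427 CPM in the males. Each female lay above each male. The log2FC was -1.83 (SE 0.28, adjusted p = 0.000443).

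Grb10 (chromosome 11), an imprinted adaptor that dampens signalling from the insulin and IGF-1 receptors, lay between 60.4 and 86.6 CPM in females (median 69.4) and between 29.0 and 51.7 CPM in males (median 34.3), with a log2FC of -0.93 (SE 0.11, adjusted p = 2.48e-05). It was the only call among 25 tested genes of muscle growth control, where 0.182% of all tested genes were called higher in females. The list's median was -0.07. In that list Igf1 had a log2FC of 0.0071 (SE 0.34), with 14.1 to 31.2 CPM in females and 20.2 to 22.7 CPM in males, and myostatin (Mstn), which limits muscle mass, had -0.06 (SE 0.31).

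Ak4 (chromosome 4), an adenylate kinase of the mitochondrial matrix, had 12.2, 17.8 and 22.2 CPM in the lowest, the median and the highest female and 1.42, 3.38 and 7.36 CPM in the males (log2FC -2.23, SE 0.33, adjusted p = 0.000228). Stc2 (chromosome 11), stanniocalcin 2, a secreted protein that restrains the release of IGF from its binding proteins, lay between 4.20 and 9.41 CPM in females and 1.38 and 3.10 CPM in males (log2FC -1.78, SE 0.31, adjusted p = 0.0018). With the number of the mouse as a block in the model, Stc2 was not called. Fgfbp1 (chromosome 5), a carrier of fibroblast growth factors, lay between 11.9 and 25.1 CPM and between 2.34 and 8.26 CPM (log2FC -1.84, SE 0.38, adjusted p = 0.00906). Its call was lost in 12 of 25 alternative analyses, among them those without F3, F5, F7, F9, F11, M1, M3, M5 or M9. Pclo, a scaffold of the presynaptic zone, and the antisense RNA Gm15337 had a log2FC of -2.25 (SE 0.35) and -3.09 (SE 0.43), with medians of 1.51 and 7.26 CPM in females and 0.311 and 0.826 CPM in males. Gm15337 overlaps Arhgap26 on the opposite strand, and Arhgap26 had a log2FC of -1.06 (SE 0.24, adjusted p = 0.0179) with overlapping groups. Gm11752 (a lincRNA), Gm3636 (from a family of similar copies, so uncertain), Rhpn2 and Sh2d4a (an SH2 domain adaptor) had a log2FC of -2.25 (SE 0.44), -1.61 (SE 0.32), -1.19 (SE 0.25) and -1.10 (SE 0.18), without overlap. Over 25 alternatives the calls of Rhpn2, Gm3636 and Gm11752 were lost in 15, 12 and 8.

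Gadd45a, Foxo3, Sesn1, Xbp1 and Gstm2 were also higher in females. Gadd45a (chromosome 6), which is induced by DNA damage and in denervated or fasted muscle, had 30.7, 43.6 and 70.1 CPM in the lowest, the median and the highest female and 15.97, 20.8 and 25.9 CPM in the males (log2FC -1.18, SE 0.22, adjusted p = 0.00321). F9 and F1 were the highest females. Leaving out F1, F9, M3, M5 or M11 raised the adjusted p-value above 0.01, to at most 0.0119. Foxo3 (chromosome 10), a transcription factor that drives atrophy and autophagy genes, lay between 31.1 and 48.5 CPM in females and between 22.1 and 26.3 CPM in males (log2FC -0.58, SE 0.12, adjusted p = 0.00919). That call was close to the threshold and was lost in 17 of 25 alternatives, including each that left out 1 mouse other than F3, with adjusted p-values there of up to 0.0277. The 17 include the limit of a log2FC beyond 1, which Foxo3 fails by construction. Sesn1 (chromosome 10), a target of p53 and FoxO that restrains mTORC1, lay between 41.6 and 89.9 CPM in females and 26.6 and 34.1 CPM in males (log2FC -0.93, SE 0.17, adjusted p = 0.00255). Without M1 and M9 it no longer passed (adjusted p = 0.0244). Xbp1 (chromosome 11), a factor of the unfolded protein response that also responds to estrogen in breast cells, lay between 79.6 and 154 CPM and between 56.4 and 67.2 CPM (log2FC -0.81, SE 0.13, adjusted p = 0.000872). Gstm2 (chromosome 3), a glutathione transferase from a family of similar genes, lay between 61.2 and 122 CPM and between 31.1 and 57.1 CPM (log2FC -1.08, SE 0.19, adjusted p = 0.00164). With the number of the mouse as a block in the model, Sesn1, Xbp1 and Gstm2 were not called.

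The lists to which these genes belong held few calls, where 0.182% of all tested genes were called higher in females. Xbp1 was the only call among 8 tested estrogen-responsive genes (median log2FC -0.08) and among 17 of the ATF4 and unfolded protein response (-0.03). Gstm2 was the only one among 20 metallothioneins and antioxidants, whose median was above 0 (0.15). Gadd45a was the only one among 16 genes of the neuromuscular junction and denervation (-0.18). Of 19 tested muscle atrophy genes 2 were called, Gadd45a and Foxo3, both higher in females (background 0.182%), and the list's median log2FC was -0.04. Every female lay above every male for 5 of the 19 and below for 1, where 0.848% and 1.61% of tested genes did so. The ubiquitin ligases Fbxo32 (0.45, SE 0.33) and Trim63 (-0.01, SE 0.30), which mark muscle proteins for degradation, overlapped between the sexes. Klf15, a factor induced by glucocorticoids, had 44.5 to 64.8 CPM in females and 27.7 to 43.9 CPM in males without overlap, and its log2FC of -0.57 (SE 0.13) missed the threshold in edgeR (adjusted p = 0.0232) and passed it in DESeq2 (adjusted p = 0.00345) and limma-voom (adjusted p = 0.00911). Cdkn1a, a brake of the cell cycle, likewise lay higher in every female and did not pass (log2FC -1.04, SE 0.23, adjusted p = 0.0141).

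Receptors of steroid hormones had 0 calls in edgeR, DESeq2 and limma-voom. Of the 7 tested, 2 reached an unadjusted p-value below 0.05, which 13.1% of all tested genes did. The estrogen receptor Esr1 lay between 29.4 and 43.6 CPM in females and 26.2 and 35.5 CPM in males (log2FC -0.26, SE 0.12, adjusted p = 0.385). The glucocorticoid receptor Nr3c1 stood at -0.28 (SE 0.12, adjusted p = 0.315) and the mineralocorticoid receptor Nr3c2 at -0.11 (SE 0.11, adjusted p = 0.759). The progesterone receptor Pgr had at most 1 count in any vehicle-treated mouse and was not tested. Among 16 tested targets of the glucocorticoid receptor 0 were called by edgeR, 3 had an unadjusted p-value below 0.05, DESeq2 called 2 and limma-voom 1, where the shares of all tested genes were 13.1%, 2.09% and 1.33%. Fkbp5 had a log2FC of 0.40 (SE 0.28), Per1 of -0.42 (SE 0.30) and Pdk4 of 0.25 (SE 0.27), each with overlapping groups. Among 16 tested genes listed as responsive to androgens, mostly known from prostate, edgeR called 0, with 3 below an unadjusted p-value of 0.05, 2 called by DESeq2 and 1 by limma-voom, beside the same shares of all tested genes. That list left out Odc1, Amd1 and Smox, which were called and are given above with the polyamine genes. The largest of the separated members were Acsl3 (log2FC 0.95, SE 0.24, adjusted p = 0.0338) and Herc3 (0.73, SE 0.18, adjusted p = 0.0305), both above in every male.

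Myosin genes of every fiber type overlapped between the sexes. The type 2B myosin Myh4 lay between 24417 and 48121 CPM in females and 26469 and 43238 CPM in males (log2FC -0.06, SE 0.26). The type 2A and 2X myosins Myh2 and Myh1 had a log2FC of 0.11 (SE 0.92) and 0.47 (SE 0.62). Slow myosin Myh7 varied most widely within a sex, with 803 and 1629 CPM in F5 and F3, 618 and 1066 CPM in M3 and M5, and at most 28.1 CPM in the others (log2FC -0.54, SE 1.86, adjusted p = 0.952). Of 15 slow fiber genes and 17 fast fiber genes edgeR, DESeq2 and limma-voom called 0, while an unadjusted p-value below 0.05 was reached by 0 and 1 of them. With the slow fiber score of each mouse as a covariate, a choice made after seeing the data, the calls rose from 108 to 171 and kept 107 of the 108.

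Genes of the respiratory chain and of fatty acid oxidation mostly had small values above 0. Of 81 tested subunits of the respiratory chain 76 had a log2FC above 0, where 49.3% of all tested genes did, and their median was 0.17. edgeR, DESeq2 and limma-voom called 0 of them, and 3 reached an unadjusted p-value below 0.05. Their summed level was 38447 and 38563 CPM in M3 and M5, the males with high slow fiber genes, and 32388 CPM in M11. M1, M7 and M9 lay between 24096 and 29692 CPM and the females between 24355 and 30617 CPM. Within that female range, F3 and F5, the females with high slow fiber genes, had 26560 and 28216 CPM. The part of slow fibers in this was not tested. Among genes of fatty acid uptake and oxidation 26 of 34 lay above 0 with a median of 0.13, with 0 called by edgeR, DESeq2 or limma-voom and 0 below an unadjusted p-value of 0.05. Their sums were likewise highest in M5 (10194 CPM) and M3 (8952 CPM), with 8251 CPM in F3 and 7299 CPM in F5. Cytosolic ribosomal proteins were at a median of -0.04, with 24 of 77 above 0, 0 called by these tools and 2 below an unadjusted p-value of 0.05. Genes of such a family are measured in the same mice and are not independent, and no test was made of a list.

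In all, 30 of the 40 lists held no call, and these 30 had 39 memberships at an unadjusted p-value below 0.05 among 525 tested, 6 called by DESeq2 and 3 by limma-voom, where 13.1%, 2.09% and 1.33% of all tested genes were. All 13 lists of cell type markers were among them. Schwann cell markers had a median of -0.85, 6 of 10 at an unadjusted p-value below 0.05 (13.1% of all tested genes) and a summed level of 84.9 to 248 CPM in females and 55.1 to 131 CPM in males. Hepatocyte markers had a median of 1.06 and summed to 211 to 398 CPM in females and to 77.4 to 438 CPM in males other than M9, which had 1837 CPM. M1, M3, M5 and M7 lay below every female. The median sum was thus lower in males (187 CPM) than in females (270 CPM), although the median log2FC was above 0. Adipocyte markers, with a median of -0.34, summed to 312 to 2796 CPM in females and 242 to 1095 CPM in males, and the highest were F5, F3 and F9. In a bulk sample fewer cells of a type and less RNA per cell cannot be told apart. With the adipocyte or the hepatocyte score as a covariate 108 and 105 of the 108 calls were kept, and without M1 and M9, which left 4 males, 77 were kept, these choices being made after seeing the data. The part of these cell types in single genes was not tested beyond that.

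The same comparison could be made in mice that shared none of the animals, the corticosterone-treated males and females. Of the 108 genes 94 (87%) differed in the same direction there, where 58% of all tested genes did, and 49 of them also passed the threshold. In corticosterone-treated mice 23.4% of tested genes were called between the sexes in either direction, so that calls are more frequent there. Of the male-higher genes 45 of 85 were called again in the same direction (background 9.48%) and of the female-higher genes 4 of 23 (background 13.9%). Every corticosterone-treated male lay above every such female for 39 of the 85 (background 6.98%), and below for 4 of the 23 (background 5.44%). The difference was smaller under corticosterone for 96 of the 108, with a median log2FC of 0.77 for the male-higher and -0.25 for the female-higher genes. These medians favour the vehicle-treated mice, in which the genes were picked. When vehicle-treated and corticosterone-treated mice were fitted apart, 127 genes were called in the former. Of these, 109 had the same direction in the latter and 44 were also called there in that direction. In that separate fit of corticosterone-treated mice 1280 of the 12613 tested genes were called, in either direction.

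The called polyamine genes had a log2FC above 0 there too, and 3 of the 4 were called again. Odc1 lay between 39.9 and 91.0 CPM in corticosterone-treated females and 120 and 314 CPM in males of that group (log2FC 1.78, adjusted p = 4.6e-05). Amd1 lay between 78.8 and 136 CPM and between 179.9 and 555 CPM (log2FC 1.34, adjusted p = 0.000572). Smox overlapped there, with 26.5 to 115 CPM and 71.8 to 371 CPM (log2FC 1.42, adjusted p = 0.00575). Amd2 overlapped as well and was not called (log2FC 0.90, adjusted p = 0.166). Slc30a2 (log2FC 2.83), Psmd8 (1.06), Serpinb6a (1.54) and Ak4 (-1.58) were called again as well.

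**Figure D5:**
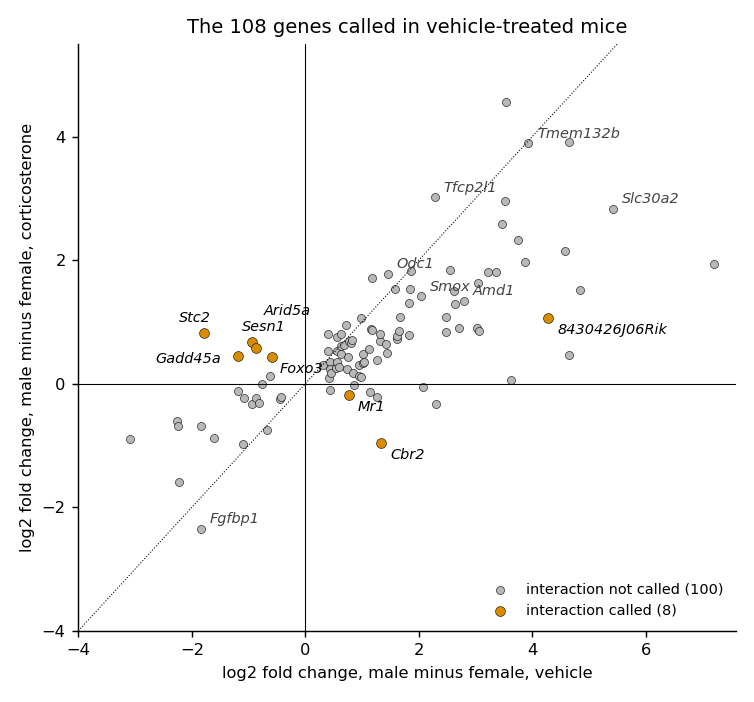
Each point is 1 of the 108 called genes, with its log2FC (male minus female) in vehicle-treated mice on the x axis and in corticosterone-treated mice, which were other animals, on the y axis, and the dotted line marks equal values. In all, 94 points share a sign, and the 8 genes in orange had a vehicle difference that differed from the corticosterone difference at an adjusted p-value under 0.01.

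The difference between the sexes itself differed between vehicle and corticosterone (interaction of sex and treatment, adjusted p-value under 0.01) for 8 of the 108 genes, beside 90 of all tested (0.714%). As the 108 were picked for a difference under vehicle, which the interaction also contains, this share is not independent of that choice. In Sesn1 the vehicle-treated females were higher, while under corticosterone males, at 73.1 to 131 CPM, lay above females, at 51.3 to 67.0 CPM (interaction -1.61, adjusted p = 0.00385). Arid5a, an RNA-binding protein that stabilizes inflammatory transcripts, went from 5.42 to 7.34 CPM in vehicle-treated females and 2.87 to 4.71 CPM in males to 4.87 to 6.76 CPM and 6.25 to 9.92 CPM (interaction -1.45, adjusted p = 0.00143). Cbr2, a carbonyl reductase, was male-higher under vehicle, with 12.2 to 24.4 CPM in females and 36.2 to 64.7 CPM in males, and female-higher under corticosterone, with 12.3 to 35.4 CPM and 9.86 to 20.8 CPM (interaction 2.30, adjusted p = 0.00385). Sesn1, Arid5a and Cbr2 were called in opposite directions in the 2 comparisons.

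Stc2, Gadd45a and Foxo3, female-higher under vehicle, had a log2FC above 0 under corticosterone without being called there (0.82, 0.46 and 0.43), with interactions of -2.60, -1.64 and -1.02. Mr1, which presents vitamin metabolites to T cells, and 8430426J06Rik were male-higher under vehicle, with interactions of 0.95 and 3.21. These calls leaned on single mice: of 22 alternative fits, Arid5a kept its interaction in 21, Cbr2 and Sesn1 in 19, Foxo3 and Stc2 in 14, Mr1 in 10, Gadd45a in 9 and 8430426J06Rik in 8. Leaving out M3 kept 1 of the 8, leaving out F1, F9, M7 or M11 kept 3 each, and leaving out F7, F11, M5 or M9 kept 5 each. With the adipocyte score as a covariate 1 was kept, and without both M1 and M9 0 were kept at the threshold, with adjusted p-values for the 8 that reached at most 0.0255 in any alternative.

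The called genes were spread over the autosomes, from 1 on chromosome 13 to 10 on chromosome 10. The 84 called genes with a tested neighbour within 50 kb formed 225 pairs with their neighbours, each pair counted once. Both genes were called in 4 of these pairs. Over all tested genes 0.856% were called, which is a share of genes and not of pairs, so the 2 cannot be compared directly. Amd1 and Cdk19, a kinase of the Mediator complex, lie 37377 bases apart on opposite strands, and Cdk19 lay between 14.8 and 21.7 CPM in females and 40.8 and 66.4 CPM in males (log2FC 1.67, SE 0.14, adjusted p = 8.65e-08). Mchr1, a receptor for melanin-concentrating hormone, lies 3692 bases from 8430426J06Rik (log2FC 2.49 and 4.28). Ntmt1, which methylates the amino end of proteins, lies 4164 bases from 1700001O22Rik (0.74 and 4.65), and Rab12, a small GTPase, lies 34775 bases from Themis3 (0.71 and 3.54). In each pair both genes were higher in males.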

How the data were processed

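The authors prepared stranded mRNA libraries from quadriceps, aligned read pairs to mm10 with STAR 2.7.3a and counted those on 1 gene, by strand, with HTSeq 0.12.4, per the labels and the methods. What the authors deposited are raw counts, not normalized, 1 column for each mouse. The 5 summary entries took 11.3% to 15.2% of the pairs of a vehicle-treated mouse and were left out, as were X, Y and mitochondrial genes once p-values had been adjusted. GENCODE M21 on GRCm38 matched 55480 of the gene IDs and gave names and positions.

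A gene was tested where any group had 4 or more mice above 20 normalized counts, which left 13049 genes, 12613 of them autosomal. Counts were scaled by TMM and tested by quasi-likelihood in edgeR 4.0.16 (R 4.3.3), with 1 model of all 23 mice and 4 group means. Benjamini-Hochberg adjustment ran over all 13049 genes, with a threshold of 0.01. DESeq2 1.42.0, limma-voom with sample quality weights (limma 3.58.1), vehicle-treated mice alone, other filters and scaling, a replicate block and 12 fits that each left out 1 mouse were alternatives. Scripts were tested on simulated counts. CPM are scaled by TMM, scores are mean log2 CPM of a list with a prior count of 1, and counting intervals are exact. Replicates are separate mice, and no pair agreed within sampling noise (lowest chi-square per degree of freedom 13.2).

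The genes named are the 12 with the largest log2FC in each direction among called genes whose groups did not overlap, every called member of a list, and 19 genes fixed by name. A called member of the lists is not reported here. Others were named after their values were seen, as were the neighbours and the genes given as not called outside that set. The genes, the 40 lists and the tests were chosen with earlier results of these data known. Motifs in promoters were chosen after seeing the calls.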

Additional observations from a re-analysis of the deposited data

Results flagged for a closer look

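Single mice stood far from the 5 others of their group in 10 of 160 groups of values examined, where chance gives about 1 in 20. Among females these were F3 for 8430426J06Rik (0.729 CPM) and for Gm12240 (0.0858 CPM, the only female with a count), F5 for Slc15a5 (0.820 CPM), and F9 for Sh2d4a (11.9 CPM) and for Mstn (158 CPM). Among males these were M1 for Slc2a3 (37.6 CPM, high) and Vldlr (269.5 CPM, low), M11 for Ly6g6d (0.536 CPM, low), M1 for the number of genes with a count (23837) and M9 for the summed hepatocyte markers (1837 CPM).

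For 8 genes the male to female difference under vehicle differed from that under corticosterone by the test of the difference itself (edgeR, adjusted p-value under 0.01). The difference of the 2 log2FC was 3.21 for 8430426J06Rik, 2.30 for Cbr2 and 0.95 for Mr1, which were higher in males under vehicle. It was -2.60 for Stc2, -1.64 for Gadd45a, -1.61 for Sesn1, -1.45 for Arid5a and -1.02 for Foxo3, which were higher in females under vehicle.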

How the results depend on the processing

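No called result reversed its direction. Of the genes named without a call, 7 changed sign in at least 1 alternative (32 values in all), each without being called there: Igf1, Mstn, Myh1, Myh2, Myh4, Myh7 and Trim63. Myh2 reached -0.54 and Myh1 -0.13 in limma-voom, Myh7 0.74 without F3, Mstn 0.26 and Trim63 0.20 without F9. Against 108 autosomal calls (85 higher in males, 23 in females, 94 with the same direction under corticosterone), DESeq2 gave 263 (194, 69, 214), limma-voom 168 (43 in females, 145 same direction), an adjusted p-value under 0.05 gave 287 (200, 87, 232), a log2FC beyond 1 gave 67 (55, 12, 60) and the slow fiber score as a covariate 171 (49 in females, 147 same direction). The cause of these shifts was not tested, except that the threshold of 0.05 is looser and the log2FC limit stricter by construction. Leaving out 1 mouse at a time gave 83 to 106 calls, 68 to 84 in males, 14 to 28 in females and 76 to 93 in the same direction, and an adjusted p-value of the component that best parts the sexes from 0.00866 to 0.0649, the latter without M5. Of the 108 calls 73 held in each of these 12 fits and 48 in each of the 23 alternative fits, and DESeq2 kept 108, limma-voom 99 and the vehicle-treated mice alone 85. Without M1 and M9 there were 81 calls, 65 in males and 16 in females. Scaling by the median of ratios moved the median log2FC by 0.0056 and kept all 108.

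Same-numbered males and females correlated at 0.0846 to 0.477, over 0.1 in 5 of 6 pairs. In each sex 3 of 6 mice correlated best with their own number. Slow fiber sums were high in F3, F5, M3 and M5, and tenocyte sums were highest in F7, F11, M7 and M11. Some values thus follow the numbers, whose meaning the labels do not give. The main model left the numbers out, and whether they pair mice was not tested. A replicate block gave 121 calls (92 in males, 29 in females, 106 in the same direction), 73 of them shared with the 108, and did not call Sesn1, Xbp1, Gstm2, Stc2, Mchr1, Foxo3 and Gm3636. Among the named genes the calls lost most often were those of Foxo3 (17 of 25 alternatives, the log2FC limit among them), Rhpn2 (15), Gm3636 and Fgfbp1 (12 each) and Gm11752 (8). Low counts limit genes near 1 CPM in males and near 0 in females, whose fitted fold depends on the prior count.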
